A study of Mus musculus with 6 samples.

Results

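Granulosa cells surround the oocyte, make estradiol from the androgens of neighbouring theca cells and, after ovulation, turn into luteal cells of the corpus luteum. A small group of transcription factors gives them their identity and keeps it, and loss of some of these factors in the adult ovary lets granulosa cells take on features of Sertoli cells, their counterparts in the testis. The 10 genes examined here encode factors of that kind and were chosen by symbol, out of 44788 genes listed: the forkhead factor gene Foxl2, the zinc finger gene Wt1, the nuclear receptor genes Nr5a1, Nr5a2 and Nr0b1, the GATA factor genes Gata4 and Gata6, the Sertoli factor gene Sox9, and the runt factor genes Runx1 and Runx2. The rule lists symbols and uses no measured value, although earlier results of these data were known when it was written.

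Their RNA was measured in whole ovaries of C57BL/6 J mice aged 8 weeks, in 3 wild type ovary samples (WT, Bnc1+/+; replicates 1, 4 and 7) and 3 Bnc1tr/tr samples (replicates 1, 2 and 3). Bnc1 encodes basonuclin 1, a zinc finger protein of germ cells and epithelia, and Bnc1tr/tr mice carry on both alleles, from the germline and in every cell, a small targeted deletion that shifts the reading frame and ends the protein early. The comparison asks whether the truncation goes with a different level of each factor in the ovary. The study's text describes biological replicates, run in duplicate, and littermate comparisons. The labels do not say which samples share a litter, so litter could not enter the fit, and the p-values below measure the spread between these samples.

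Library totals ran from 25247770 to 34406296 counts, with every WT library deeper (at least 28123709) than every Bnc1tr/tr library (at most 27315341). Levels are given as CPM, counts divided by the TMM-normalized library size, a scale on which most genes match between ovaries. Each of the 10 genes had at least 103 counts in every ovary. All passed the filter on low counts, which 19423 genes passed. Summed markers set some samples apart from the rest. Oviduct epithelium markers reached 535 CPM in Bnc1tr/tr 3 and 157 CPM in WT 1, against 24.8 to 52.2 CPM in the others, and adipocyte markers reached 133.5 and 80.02 CPM in Bnc1tr/tr 1 and 2, against 10.7 to 32.4 CPM elsewhere. Every marker list of an ovarian cell type had reads in all ovaries, and no marker was at 0 throughout. Bnc1 itself was at 13.1 to 13.9 CPM in WT and 11.5 to 18.7 CPM in Bnc1tr/tr ovaries. The deletion cannot be seen in reads summed over the gene, so this is no check of the genotype labels.

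A runt gene showed the largest contrast among the 10, and the runt genes share a stretch of sequence near their distal start sites. Runt factors bind the word TGTGGT, read ACCACA on the other strand. In the RefSeq promoter windows of GRCm38.p6, which run from 250 bases before to 50 after each transcript start, Runx1 and Runx2 each hold this word in a pair, 2 bases apart, and so does their relative Runx3. The stretches are shown, 5′ to 3′ on the strand of the gene, because the genes that share them had unlike values, given below; capitals mark the paired words. The Runx1 stretch lies on the minus strand at chr16:92826027-92826056, from 19 to 48 bases after the start. The Runx2 stretch lies on the minus strand at chr17:44814585-44814614, from 14 to 43 bases after the start. The Runx3 stretch lies on the plus strand at chr4:135120501-135120530, from 144 to 115 bases before the start.
Runx1: ctcataaacaACCACAgaACCACAagttgg
Runx2: ctcacaaacaACCACAgaACCACAagtgcg
Runx3: tggtccctcaACCACAgaACCACAaggcca
Of the 30 bases, 27 are identical between Runx1 and Runx2, 20 between Runx2 and Runx3 and 18 between Runx1 and Runx3. Among 32851 windows in the table the pair with exactly the bases ga between the words, read on either strand, was found in 4. These were the windows of the 3 runt genes and that of Gm16225, which overlaps that of Runx3 on the other strand. Pairs with other bases between the words, or with the words in other orientations, were not searched. A single runt word is common by comparison and was found in 16.76% of windows, with 2 or more in 1.81%.

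Further words were searched on both strands in the windows of the members. These were AGGTCA for NR5A receptors, AGATAA for GATA factors, TAAACA for forkhead factors and ACAAAG for SOX factors, and they were found in 16.26%, 11.18%, 13.44% and 18.71% of all windows. The table holds 7 windows for 5 of the 10 members (Foxl2, Nr5a2, Nr0b1, Runx1 and Runx2). The Foxl2 window and the proximal Runx1 window held none of the 5 words. The Runx2 window held 1 more runt word, 3 bases after an NR5A word. The stretch with these words, on the minus strand at chr17:44814695-44814724, is shown because Nr5a1 and Nr5a2 are members. Its distance counts from the RefSeq start at chr17:44814627. The GENCODE gene, whose position is given below, starts further upstream at chr17:44814797 and takes in this stretch. Capitals mark the NR5A word and then the runt word.
Runx2, 97 to 68 bases before the start: gtactgtgAGGTCAcaaACCACAtgattct
The windows of Nr0b1 and Nr5a2 held an NR5A word and a pair of GATA words respectively. The stretches with these words lie on the plus strand at chrX:86191622-86191681 and on the minus strand at chr1:136960616-136960692. They are shown as examples of a word for 1 member family before the start of another member; capitals mark these words. The printed Runx1 stretch also holds the forkhead word, in lower case, directly before its first runt word. The printed Nr0b1 stretch also holds a SOX word, left in lower case, and its window holds a runt word further upstream. Not printed are an NR5A word in the same Nr5a2 window and a SOX word in the second Nr5a2 window.
Nr0b1, 153 to 94 bases before the start: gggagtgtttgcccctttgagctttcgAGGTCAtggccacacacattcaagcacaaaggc
Nr5a2, 244 to 168 bases before the start: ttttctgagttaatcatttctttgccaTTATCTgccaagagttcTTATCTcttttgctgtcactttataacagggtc
A word of this length is a match of letters and not a measured binding site. None of the searched words overlap each other in the stretches shown.

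Of the 10 factors, Runx2 alone passed the threshold in edgeR's quasi-likelihood test (adjusted p under 0.05, Benjamini-Hochberg adjustment over all genes tested), and it was lower in Bnc1tr/tr ovaries. Over all 19423 genes tested, 7.06% passed, 4.19% as lower and 2.88% as higher, so that 1 of 10 is close to the share among all genes. At an unadjusted p under 0.05, 3 of the 10 were lower (Foxl2, Gata6 and Runx2) and 0 were higher in the edgeR test, against 24.2% of all genes tested (12.3% as lower and 11.9% as higher). That count was 1 lower and 1 higher with library size alone or without WT 4, and 1 lower and 0 higher without Bnc1tr/tr 1. It was 2 lower and 0 higher without WT 7, Bnc1tr/tr 2 or Bnc1tr/tr 3. With scaling to granulosa cell markers it was 4 lower and 0 higher. DESeq2 and limma-voom likewise called Runx2 alone. The genotypes did not overlap in 4 of the 10 genes, Foxl2, Gata6 and Runx2 as lower and Sox9 as higher, or 40.0%, against 30.8% of all genes tested (15.8% as lower and 15.0% as higher). The median log2 fold change over all genes was 0.02, and 5 of the 10 factors had a positive and 5 a negative log2 fold change.

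**Figure D1:**
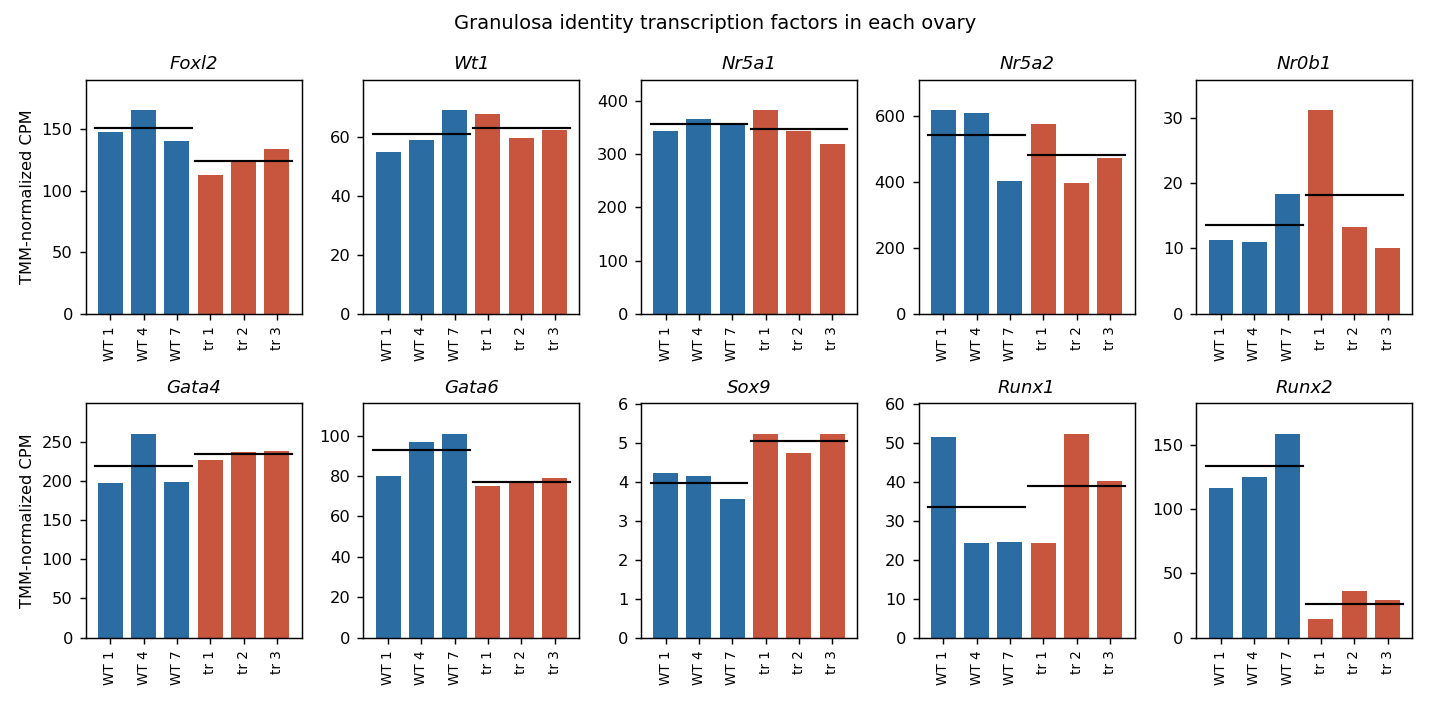
Level of each of the 10 factors in TMM-normalized CPM (y axis, from 0, a scale of its own in each panel) in the 6 ovary samples (x axis; tr stands for Bnc1tr/tr). Bars are single ovaries and black lines are the means of 3. Runx2 lies between 14.1 and 36.3 in Bnc1tr/tr against 117 to 159 in WT, while Nr5a1, Gata4 and Wt1 overlap between the genotypes.

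Runx2 is best known for its role in bone and is induced in granulosa cells around ovulation. Its gene lies on the minus strand at chr17:44495987-44814797 (GRCm38, GENCODE M21). Runx2 was measured at 117, 126 and 159 CPM in the WT ovaries and at 14.1, 36.3 and 29.1 CPM in the Bnc1tr/tr ovaries. Every Bnc1tr/tr ovary lay below every WT ovary. The mean fell from 134 ± 22.2 to 26.5 ± 11.3 CPM (SD, n = 3), to 19.8% of the WT mean. The log2 fold change was -2.34 (SE 0.32, 95% confidence interval -3.07 to -1.61, edgeR adjusted p = 0.0067). Of all genes tested, 1.08% had an absolute log2 fold change at least this large, and 88 other genes called lower fell further. Runx2 passed the threshold under each of 13 alternative settings, with log2 fold changes from -2.66 to -2.03 and adjusted p from 2.4e-14 (DESeq2) to 0.0442 (edgeR without WT 4).

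Markers of the corpus luteum and of endothelial cells were lower in the same ovaries, and their part in the fall of Runx2 was not tested. In these bulk samples fewer cells of a type and less RNA per cell cannot be told apart. Of all genes tested, 2.88% were called higher and 4.19% lower, for comparison with the marker counts that follow. Of 10 corpus luteum markers, 8 were lower and 0 higher (5 lower without WT 1, 2 without WT 4, 2 without WT 7 and 3 without Bnc1tr/tr 3), and their sum was 23410 to 28110 CPM in WT and 7357 to 12730 CPM in Bnc1tr/tr ovaries. Of 6 endothelial markers, 4 were lower and 0 higher (2 lower without WT 4, WT 7, Bnc1tr/tr 1 or Bnc1tr/tr 2), and their sum was 520.9 to 696.5 CPM in WT and 347 to 391 CPM in Bnc1tr/tr ovaries. Neither sum overlapped between the genotypes, and no marker of these lists was at 0. The Bnc1tr/tr means were 39.8% of WT for the luteal sum and 62.3% for the endothelial sum, against 19.8% for Runx2. Cyp11a1 and Hsd3b1, at WT means of 10160 and 8430 CPM, made up most of the mean WT luteal sum of 26230 CPM. Single luteal markers ran from 12.4% of WT (Lhcgr) to 77.4% (Parm1), so the sum does not place Runx2 below luteal RNA in general. Among the Bnc1tr/tr ovaries Runx2 and the luteal sum had the same order, with Bnc1tr/tr 1 lowest and Bnc1tr/tr 2 highest, while the endothelial sum was also lowest in Bnc1tr/tr 1 but highest in Bnc1tr/tr 3. Among the WT ovaries Runx2 and the endothelial sum had the same order, with WT 1 lowest and WT 7 highest. The luteal sum was also lowest in WT 1 but highest in WT 4. The mean log2 CPM of the luteal markers, which weighs each marker alike, was 9.17, 9.68 and 9.76 in WT 1, 4 and 7. It was 7.38, 8.31 and 7.855 in Bnc1tr/tr 1, 2 and 3, so on this scale both genotypes had the order of Runx2. Single markers differed, with Cyp11a1 highest in Bnc1tr/tr 2 and Lhcgr highest in Bnc1tr/tr 1. Of 14 granulosa cell markers 3 were higher and 0 lower, with sums of 4246 to 5304 CPM in WT and 5077 to 7535 CPM in Bnc1tr/tr ovaries, which overlap. The granulosa markers that rose were Amh (log2 fold change 1.07), Slc18a2 (0.75) and Amhr2 (0.62). Of 12 oocyte markers 3 were also higher and 0 lower (Gdf9, Bmp15 and Oosp1), with sums of 586 to 760 CPM in WT and 726 to 1101 CPM in Bnc1tr/tr ovaries, which overlap as well. None of the oocyte markers passed under granulosa marker scaling, a scaling that cannot be read for the granulosa markers since they set it. Leaving out an ovary other than Bnc1tr/tr 2 gave 2 granulosa markers called higher, and no oocyte marker was called without WT 4, WT 7 or Bnc1tr/tr 3.

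**Figure D2:**
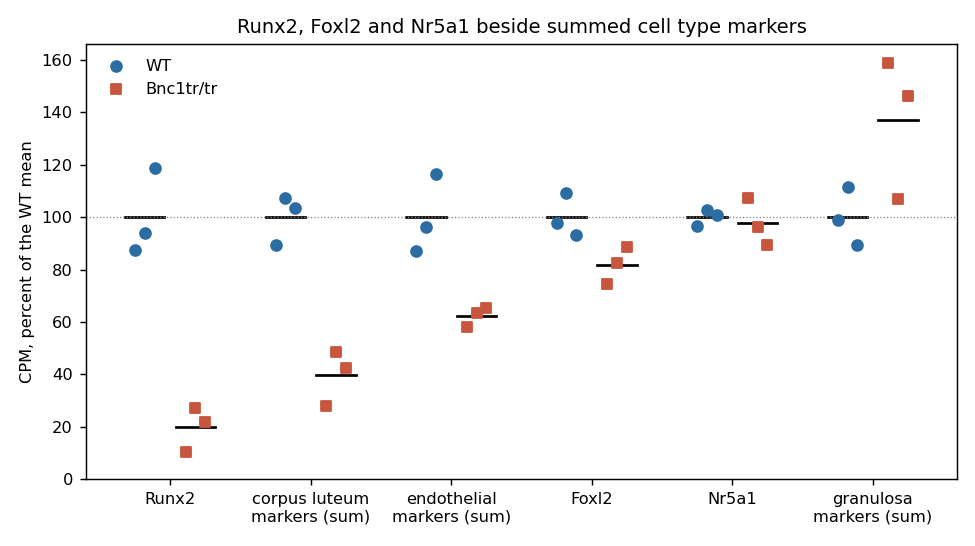
CPM as a percent of the WT mean (y axis, from 0) for Runx2, Foxl2, Nr5a1 and the summed markers of 3 cell types (x axis). Points are ovaries and short lines the means of 3 per genotype. In Bnc1tr/tr ovaries the mean of Runx2 lies at 19.8%, that of the corpus luteum markers at 39.8% and that of the granulosa markers at 137%.

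Runx1, which supports granulosa identity in the fetal ovary, lies on the minus strand at chr16:92601466-92826149. Its levels were 51.4, 24.4 and 24.6 CPM in WT and 24.4, 52.3 and 40.1 CPM in Bnc1tr/tr ovaries. The high values belonged to WT 1 and Bnc1tr/tr 2, so the genotypes overlapped over almost their whole range. This gave a log2 fold change of 0.22 (95% confidence interval -0.60 to 1.04, edgeR adjusted p = 0.75), an interval that takes in changes in both directions. Without Bnc1tr/tr 2 it was -0.05. The coefficient of variation within a genotype, 46.5% in WT and 35.9% in Bnc1tr/tr, lay well above that of Nr5a1, 3.19% and 9.33%. Runx3, the remaining runt gene and no member, was measured at 3.64, 3.26 and 2.66 CPM in WT and 2.03, 1.54 and 1.45 CPM in Bnc1tr/tr ovaries. All Bnc1tr/tr values lay below the WT values, but the edgeR test did not pass the threshold (log2 fold change -0.93, adjusted p = 0.062). Runx3 passed as lower under 2 of 13 alternatives, the DESeq2 test and scaling to granulosa cell markers. The shared stretch printed above lies near the starts of genes whose log2 fold changes were -2.34, -0.93 and 0.22. Whether the stretch has a part in these values was not tested. Cbfb, whose protein pairs with every runt factor on DNA, was at 63.5 to 65.5 CPM in WT and 62.2 to 73.7 CPM in Bnc1tr/tr ovaries.

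The annotation places other genes within Runx2 on the opposite strand, and whether reads were counted by strand is not given in the sources used here. Supt3 overlaps its first part at chr17:44777152-44814797 and was at 28.8 to 35.7 CPM in WT and 33.8 to 36.1 CPM in Bnc1tr/tr ovaries. It was not called (log2 fold change 0.12, edgeR adjusted p = 0.50). The antisense gene Runx2os2 had between 0 and 5 counts per ovary, too few to be tested.

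Foxl2 keeps granulosa cells from turning towards a Sertoli fate and represses Sox9 in the adult ovary. It lies on the plus strand at chr9:98955288-98958543 as a gene with 1 annotated transcript. Foxl2 was measured at 148, 165 and 140.5 CPM in WT and at 112, 124 and 134 CPM in Bnc1tr/tr ovaries. The Bnc1tr/tr values all lay under the lowest WT value, with WT 7 and Bnc1tr/tr 3 nearest to each other. The means were 151 ± 12.6 and 124 ± 10.8 CPM (SD, n = 3). The log2 fold change of -0.29 (95% confidence interval -0.52 to -0.06) had an unadjusted p of 0.020 and did not pass after adjustment (edgeR adjusted p = 0.13). Over the 13 alternatives the adjusted p ranged from 0.084 to 0.35 and the sign was kept in each. Foxl2os, read from the opposite strand and overlapping the first bases of Foxl2, was at 191, 236 and 193 CPM in WT and 143, 178 and 185 CPM in Bnc1tr/tr ovaries, with the same log2 fold change of -0.29 (adjusted p = 0.22).

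Wt1, which is needed to form the early gonad and later marks granulosa cells of young follicles and the surface epithelium, lies on the plus strand at chr2:105126529-105173616. It was measured at 54.8, 59.1 and 69.1 CPM in WT and at 67.8, 59.6 and 62.3 CPM in Bnc1tr/tr ovaries. The Bnc1tr/tr values lay inside the WT range. EdgeR gave a log2 fold change of 0.05 (95% confidence interval -0.20 to 0.30, edgeR adjusted p = 0.81). Of 8 surface epithelium markers 0 passed the threshold, and their sums, 243 to 289 CPM in WT and 231 to 375 CPM in Bnc1tr/tr ovaries, also overlapped.

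Nr5a1 (steroidogenic factor 1) and Nr5a2 (liver receptor homolog 1) bind the same DNA word and switch on steroid-making genes; Nr5a2 is needed in granulosa cells for ovulation and luteinization. Nr5a1, on the minus strand at chr2:38692656-38714542, was measured at 343, 366 and 358 CPM in WT and at 382, 342 and 318 CPM in Bnc1tr/tr ovaries. The Bnc1tr/tr ovaries spread to either side of the WT values. Its log2 fold change was -0.03 (95% confidence interval -0.25 to 0.18, edgeR adjusted p = 0.86), the smallest of the 10 in size. Nr5a2, on the minus strand at chr1:136842571-136960448, was measured at 618, 609 and 404 CPM in WT and at 575.5, 397.5 and 474 CPM in Bnc1tr/tr ovaries. WT 7 lay near Bnc1tr/tr 2, and Bnc1tr/tr 1 lay near WT 1 and 4. Its log2 fold change was -0.17 (95% confidence interval -0.62 to 0.28, edgeR adjusted p = 0.63), and it ran from -0.36 without WT 7 to -0.05 without Bnc1tr/tr 2.

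Nr0b1 encodes DAX1, which represses the NR5A receptors, and lies on the plus strand at chrX:86191764-86195947. It was measured at 11.3, 11.03 and 18.3 CPM in WT and at 31.1, 13.3 and 10.1 CPM in Bnc1tr/tr ovaries. A single sample, Bnc1tr/tr 1, was far above the rest, and the other Bnc1tr/tr values lay within or below the WT range. This gave a log2 fold change of 0.43 (95% confidence interval -0.53 to 1.38, edgeR adjusted p = 0.57), and without Bnc1tr/tr 1 it was -0.21. Its coefficient of variation in Bnc1tr/tr ovaries, 62.2%, was the highest of any factor in either genotype.

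Gata4 and Gata6 act together on steroid-making genes and on follicle growth. Gata4, on the minus strand at chr14:63198922-63271692, was measured at 197, 260.0 and 198.5 CPM in WT and at 227, 236.5 and 239 CPM in Bnc1tr/tr ovaries. The Bnc1tr/tr values were close to each other and lay between the WT values. EdgeR gave a log2 fold change of 0.10 (95% confidence interval -0.18 to 0.38, edgeR adjusted p = 0.66). Gata6, on the plus strand at chr18:11052064-11085635, was measured at 80.3, 97.1 and 101 CPM in WT and at 75.3, 77.0 and 79.0 CPM in Bnc1tr/tr ovaries. The genotypes did not overlap, although WT 1 lay close to Bnc1tr/tr 3. The log2 fold change of -0.27 (95% confidence interval -0.50 to -0.03) had an unadjusted p of 0.030 and did not pass after adjustment (edgeR adjusted p = 0.16, from 0.078 to 0.37 over the alternatives). The noncoding gene 1010001N08Rik overlaps the start of Gata6 on the opposite strand. It was measured at 18.5, 18.7 and 20.3 CPM in WT and at 14.6, 12.4 and 12.7 CPM in Bnc1tr/tr ovaries and was lower (log2 fold change -0.54, edgeR adjusted p = 0.031); without strand, reads in the overlap cannot be assigned to either gene.

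Sox9 starts Sertoli cell formation in the testis and is held low in granulosa cells. It lies on the plus strand at chr11:112782224-112787760 and was the lowest of the 10 factors. It was measured at 4.24, 4.14 and 3.55 CPM in WT and at 5.23, 4.73 and 5.22 CPM in Bnc1tr/tr ovaries. Every Bnc1tr/tr value lay above every WT value. The log2 fold change was 0.35 (95% confidence interval -0.04 to 0.74, unadjusted p = 0.075, edgeR adjusted p = 0.25). On the TMM scale the difference therefore did not pass even before adjustment, at a depth of at least 103 counts per ovary. With library size alone the log2 fold change was 0.45 (edgeR adjusted p = 0.13). In that setting Sox9 was the 1 factor higher at an unadjusted p under 0.05.

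**Figure D3:**
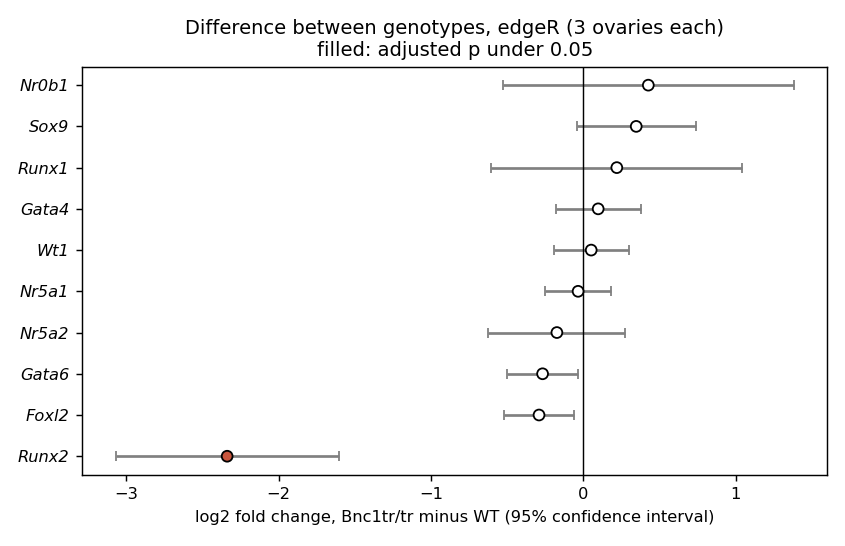
Log2 fold change of each factor, Bnc1tr/tr minus WT, from the edgeR fit over all genes (x axis), with 95% confidence intervals as lines, for 3 ovaries per genotype. The filled point, Runx2 at -2.34, passed the threshold; the intervals of Foxl2 and Gata6 lie below 0 without adjustment, and those of the other 7 cross 0.

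These directions hold relative to the TMM scale. When the ovaries were scaled instead to the geometric mean of the granulosa cell marker counts, all 10 factors had a negative log2 fold change, Gata4 at -0.24, Wt1 at -0.33, Runx1 at -0.11, Sox9 at -0.02 and Nr0b1 at -0.01 among them, and Runx2 still alone passed the threshold (-2.66). With library size alone Nr5a1 was at 0.07 and the other factors kept their sign.

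Levels of different genes were compared only per kilobase of exon. In WT ovaries Nr5a2 stood highest at 92.2 ± 20.5 CPM per kb (SD, n = 3), followed by Nr5a1 at 83.9 ± 2.68, Gata4 at 56.0 ± 9.18 and Foxl2 at 46.4 ± 3.88 CPM per kb. A lower group followed, with Runx2 at 15.1 ± 2.51, Gata6 at 14.3 ± 1.69, Wt1 at 9.85 ± 1.18 and Nr0b1 at 7.49 ± 2.27 CPM per kb. Runx1 at 2.78 ± 1.29 and Sox9 at 0.962 ± 0.0896 CPM per kb were lowest. Neighbours whose WT ovaries overlapped, and whose order is therefore not settled, were Nr5a2 and Nr5a1, Gata4 and Foxl2, Runx2 and Gata6, and Wt1 and Nr0b1. In Bnc1tr/tr ovaries the factors kept this order apart from Nr5a1 and Nr5a2, which changed places at 81.9 and 81.8 CPM per kb, and Runx2, which moved from place 5 to place 9 at 2.999 ± 1.28 CPM per kb. There it overlapped Runx1, at 3.24 ± 1.16 CPM per kb.

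Ratios of factors within the same ovary do not depend on scaling between libraries, and 5 were computed per length. The ratio of Runx2 to Runx1 was 3.09, 7.003 and 8.81 in WT and 0.7855, 0.944 and 0.988 in Bnc1tr/tr ovaries. In each WT ovary Runx2 thus stood above Runx1, and in each Bnc1tr/tr ovary slightly below it. The ratio of Sox9 to Foxl2, the factors of opposing fates, was 0.0226, 0.0197 and 0.0199 in WT and 0.0366, 0.0300 and 0.0307 in Bnc1tr/tr ovaries, higher in each of the latter though Sox9 remained far below Foxl2 everywhere. The ratio of Gata6 to Gata4 was 0.244, 0.224 and 0.305 in WT and 0.199, 0.195 and 0.199 in Bnc1tr/tr ovaries. These 3 ratios did not overlap between the genotypes. Their mean log2 differences were -2.68, 0.64 and -0.37 (exact two-sided permutation p = 0.1 each, the smallest that 3 against 3 can give, and 0.17 after Benjamini-Hochberg adjustment over the 5 ratios). Without WT 7 the difference for Gata6 to Gata4 was -0.24. The ratios of Nr5a2 to Nr5a1 (0.812 to 1.295 in WT, 0.835 to 1.08 in Bnc1tr/tr) and of Nr0b1 to Nr5a1 (0.0707 to 0.120 in WT, 0.0747 to 0.191 in Bnc1tr/tr) overlapped, each with an exact permutation p of 0.6.

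**Figure D4:**
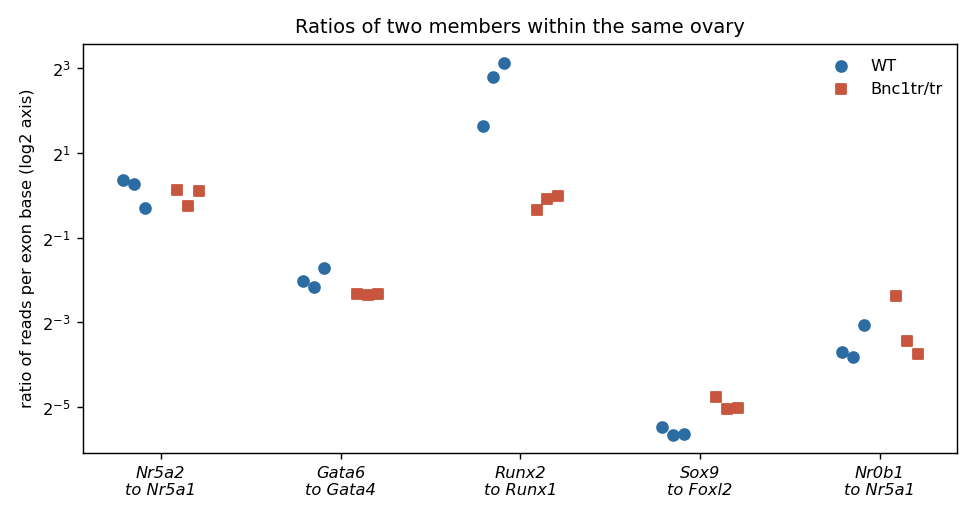
Ratio of reads per exon base between members of 5 pairs within the same ovary (y axis, log2 scale). Points are ovaries, 3 per genotype. Runx2 to Runx1 goes from between 3.09 and 8.81 in WT to between 0.7855 and 0.988 in Bnc1tr/tr, and the ratios with Nr5a1 overlap between the genotypes.

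Partners and relatives of the factors were read from fixed lists. Of 17 cofactors, 0 were higher and 1 was lower, with a median log2 fold change of 0.05 against 0.02 over all genes. Of all genes tested, 2.88% were called higher and 4.19% lower. The cofactor that fell was Ctnnb1, the gene of beta-catenin, measured at 1074, 1078 and 949.7 CPM in WT and at 600.4, 687.5 and 743 CPM in Bnc1tr/tr ovaries. Its groups did not overlap (log2 fold change -0.61, SE 0.11, edgeR adjusted p = 0.019), and the call was lost without WT 1 or without WT 4 (adjusted p at most 0.101). The GATA partner genes Zfpm1 and Zfpm2 did not pass, with log2 fold changes of -0.01 and 0.31, nor did the corepressor gene Nr0b2, a relative of Nr0b1, at -0.60.

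Of 8 tested relatives of the factor families, 2 were higher and 0 lower, against 2.88% and 4.19% of all genes tested. Their median log2 fold change was 0.35, against 0.02 over all genes. This median was 0.10 without Bnc1tr/tr 1 and -0.0059 under granulosa marker scaling. Gata3, a factor of T cells and trophoblast, was measured at 0.520, 1.21 and 0.621 CPM in WT and at 3.27, 2.93 and 3.21 CPM in Bnc1tr/tr ovaries. Sox8, which acts beside Sox9 in Sertoli cells, was measured at 1.97, 2.02 and 2.07 CPM in WT and at 7.36, 4.47 and 6.63 CPM in Bnc1tr/tr ovaries. Both genes separated the genotypes fully. The log2 fold changes were 1.98 for Gata3 (SE 0.34, edgeR adjusted p = 0.016) and 1.60 for Sox8 (SE 0.23, adjusted p = 0.0085). The call was lost for Gata3 without WT 7 (adjusted p = 0.076) and for Sox8 without WT 4 (adjusted p = 0.058).

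The fate lists gave calls in both directions. Of 17 tested regulators of ovarian fate and the early gonad, 2 were higher and 1, Ctnnb1, was lower, with a median of 0.16. Over all genes tested 2.88% were called higher and 4.19% lower, with a median of 0.02. The DESeq2 test called 4 as higher and 3 as lower. Cbx2, a polycomb gene of gonad formation, was measured at 50.1, 46.3 and 49.7 CPM in WT and at 83.2, 63.0 and 72.5 CPM in Bnc1tr/tr ovaries (log2 fold change 0.58, adjusted p = 0.025). Nr2f2, a nuclear receptor gene of ovarian stroma, was measured at 109, 92.5 and 104 CPM in WT and at 147, 166 and 128 CPM in Bnc1tr/tr ovaries (0.53, adjusted p = 0.038). Both calls were lost when any single WT ovary was left out and under granulosa marker scaling, that of Cbx2 also without Bnc1tr/tr 3 and that of Nr2f2 also without Bnc1tr/tr 1 or 2. Rspo1 and Wnt4, the signals of early ovarian fate, had log2 fold changes of -0.03 and -0.07, with adjusted p of 0.94 and 0.90.

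Of 13 tested testis fate genes, 3 were higher and 1 lower, with a median of 0.46. Besides Sox8, the genes that rose were Aard, measured at 13.4, 13.6 and 14.3 CPM in WT and 27.6, 21.9 and 27.9 CPM in Bnc1tr/tr ovaries (log2 fold change 0.91, edgeR adjusted p = 0.0063), and Dhh. Dhh encodes a hedgehog ligand that granulosa cells also send to theca cells, and was measured at 29.6, 35.5 and 31.6 CPM in WT and 45.2, 45.3 and 53.2 CPM in Bnc1tr/tr ovaries (0.57, adjusted p = 0.023). Ptgds, the prostaglandin D synthase gene that acts with Sox9 in the fetal testis, fell, from 11.9, 16.7 and 21.1 CPM to 6.12, 6.81 and 6.13 CPM (-1.38, adjusted p = 0.0099). Over the whole list 12 of the 13 tested genes had a positive log2 fold change, and 6 lay higher and 1 lower with no overlap between the genotypes, against 15.0% and 15.8% of all genes tested; of all genes 2.88% were called higher and 4.19% lower. Of the 14 granulosa cell markers, 10 had a positive log2 fold change, with a median of 0.44. Their part in the values of the testis fate list was not tested. The call of Aard was lost under granulosa marker scaling (adjusted p = 0.16), that of Ptgds without WT 4 (0.062), and that of Dhh under granulosa marker scaling and without WT 1, WT 4, WT 7 or Bnc1tr/tr 3. Dmrt1, which defines the testis fate after birth, and Sox10 and Cst9 had too few reads to be tested, with Dmrt1 between 0 and 0.107 CPM.

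**Figure D5:**
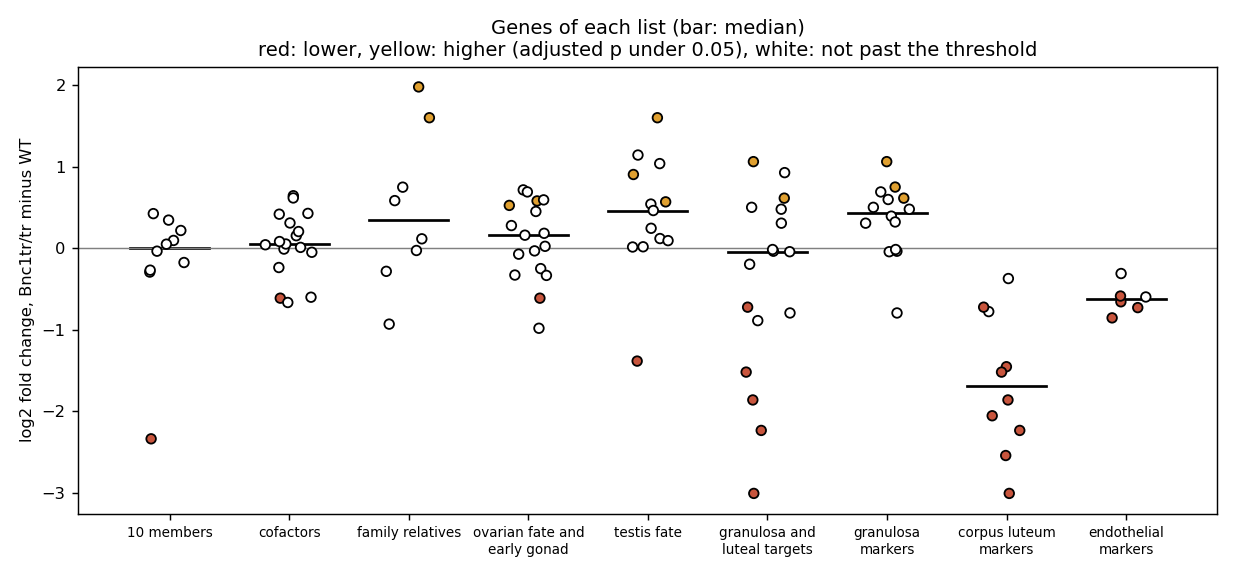
Log2 fold change, Bnc1tr/tr minus WT (y axis), of every tested gene of the 10 factors, of the lists of their partners, relatives, fate genes and targets, and of the markers of 3 cell types (x axis). Points are genes, coloured where the adjusted p was under 0.05, and bars are medians, which run from -1.69 for corpus luteum markers to 0.46 for testis fate genes.

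Of 17 tested genes that these factors are known to regulate in granulosa and luteal cells, 2 were higher and 5 lower, with a median of -0.04. Over all genes tested 2.88% were called higher and 4.19% lower, with a median of 0.02. The genes that rose were Amh and its receptor gene Amhr2, both products of granulosa cells of growing follicles. Amh was measured at 145, 193.5 and 183 CPM in WT and at 383.5, 252 and 455 CPM in Bnc1tr/tr ovaries (log2 fold change 1.07, edgeR adjusted p = 0.029). Its call was lost under granulosa marker scaling, to which it contributes. It was also lost when any single ovary other than Bnc1tr/tr 2 was left out. The edgeR adjusted p in these settings was at most 0.105.

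The targets that fell belong to the steroid pathway of luteal cells and are also on the corpus luteum list. Lhcgr, the luteinizing hormone receptor gene, was measured at 544.5, 800.1 and 728 CPM in WT and at 92.8, 86.0 and 79.0 CPM in Bnc1tr/tr ovaries (log2 fold change -3.01, edgeR adjusted p = 2.4e-04). Scarb1, the receptor gene for lipoprotein cholesterol, was measured at 2337, 2759 and 2626 CPM in WT and at 633, 739 and 755 CPM in Bnc1tr/tr ovaries (-1.86, adjusted p = 4.1e-04). Both separated the genotypes widely and passed under all 13 alternatives. Star, which moves cholesterol into mitochondria, had a log2 fold change of -2.23 (adjusted p = 0.037). Cyp11a1, the side-chain cleavage enzyme, had -1.52 (adjusted p = 0.026), and Hsd3b1 had -0.72 (adjusted p = 0.039). These last 3 calls were lost without WT 1, WT 4, WT 7 or Bnc1tr/tr 3, and that of Hsd3b1 also with library size alone or with at least 10 counts required in every ovary. Unlike Amh and Amhr2, other targets expressed in follicular granulosa cells did not pass, among them Inha at 0.50, Fst at -0.01, Fshr at 0.48 and Cyp19a1, the aromatase gene, at -0.79, where WT 4 stood at 53.8 CPM and the remaining ovaries between 9.59 and 16.0 CPM.

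Genes with the pattern nearest to a factor were found among 13079 tested genes with a mean of at least 5 CPM, by the root mean square difference of log2 CPM centred over the 6 ovaries. Nearest to Foxl2 were Yipf1, Atp5c1 and Taf9b, with differences of 0.022, 0.025 and 0.031. Nearest to Runx2 were Gm19639, Plcb2 and Parvb, with differences of 0.22, 0.24 and 0.24. This measure grows with a gene's own spread, so the differences cannot be compared between Foxl2 and Runx2. The log2 fold changes of Gm19639, Plcb2, a phospholipase gene, and Parvb, a focal adhesion gene, were -2.14, -2.60 and -2.25, which the choice by likeness to Runx2 fixes. Neighbours of the factors that varied most within a genotype were added after their values were seen. For Runx1 they were Crip1, Postn and Aox3, with differences of 0.14, 0.15 and 0.15; each had its highest values in WT 1 and Bnc1tr/tr 2. For Nr0b1 they were Bmp2, Chrdl1 and Crim1, with differences of 0.11, 0.14 and 0.16, and all 3 were highest in Bnc1tr/tr 1.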

How the data were processed

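The authors extracted total RNA from ovaries with TRIzol and sequenced single-end libraries on the Ion Proton platform. They deposited raw counts, whole numbers of reads per gene and ovary, without normalization. The submitters' processing notes name the builds mm10 and Sscrofa10.2 without a role; the aligner, counter, annotation and use of strand are not given in the sources used here. All count columns belonged to a sample.

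Counts were compared with edgeR 4.0.16 in R 4.3.3 (TMM, filterByExpr with a minimum count of 10, quasi-likelihood test, two-sided, Benjamini-Hochberg adjustment over 19423 genes, threshold 0.05). Each SE was computed back from the test, as the absolute log2 fold change divided by the square root of its F statistic. The confidence intervals used this SE and a t quantile, so both restate the test and are no separate estimate. Alternatives used DESeq2 1.42.0, limma 3.58.1 (voom), other scalings and filters, and left out each ovary in turn. The fits were also run on simulated counts, drawn with edgeR's own dispersion and without a difference in cell mixture. That run is not used as support here and does not bear on the choice of scaling. No libraries were duplicates. Positions and exon lengths came from GRCm38 with GENCODE M21, promoter windows from RefSeq (GRCm38.p6). Patterns used log2 CPM with 0.1 added. The factors and lists were chosen with earlier results of these data known. All 10 factors were named. For the lists of cofactors, relatives, fate genes and targets, the genes past the threshold were named. At most 6 of each such list were given with values, by size of fold change among those with a mean of at least 1 CPM. Of the marker lists, not every gene past the threshold was named. Others named were chosen after their values were seen.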

Additional observations from a re-analysis of the deposited data

How the results depend on the processing

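Runx2 stayed lower and past the threshold in all 13 alternatives, and no other factor passed in any of them. No paired analysis was possible because the genotypes share only replicate number 1 and the labels do not assign samples to litters. Library size alone moved the median log2 fold change of all genes from 0.02 to 0.12, and granulosa marker scaling moved it to -0.35; calls that were lower made up 59.3% with TMM, 35.7% of 1728 with library size and 87.4% of 1774 with granulosa marker scaling. DESeq2 called 2420 genes against 1372. Leaving out an ovary gave 320 to 1282 genes, with 781 without WT 1, 320 without WT 4, 518 without WT 7 and 634 without Bnc1tr/tr 3.

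Signs that turned belonged to factors that did not pass. With library size alone Nr5a1 was at 0.065. With granulosa marker scaling Gata4 was at -0.24, Wt1 at -0.33, Sox9 at -0.018, Nr0b1 at -0.011 and Runx1 at -0.11. Leaving out an ovary gave -0.11 to 0.027 for Nr5a1, -0.029 to 0.14 for Wt1, -0.21 to 0.72 for Nr0b1 and -0.052 to 0.66 for Runx1, and log2 ratio differences of -0.33 to 0.0055 for Nr5a2 to Nr5a1 and -0.073 to 0.61 for Nr0b1 to Nr5a1. The cause was not tested.

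The DESeq2 test called 1 cofactor as higher and 1 as lower, and 2 relatives as higher and 1 as lower. It called 4 ovarian fate genes as higher and 3 as lower, and 5 testis fate genes as higher and 1 as lower. With library size alone 2 cofactors were called, and list medians were 0.15 for cofactors, 0.26 for ovarian fate genes and 0.56 for testis fate genes. With granulosa marker scaling 3 cofactors and 2 testis fate genes were called, and medians were -0.31 for cofactors, -0.0059 for family relatives, -0.20 for ovarian fate genes, 0.12 for testis fate genes and -0.425 for targets. Leaving out an ovary gave 0 to 1 called cofactors, 1 to 2 relatives, 0 to 4 ovarian fate genes, 1 to 5 testis fate genes and 3 to 8 targets, with medians of 0.10 to 0.475 for relatives, 0.38 to 0.53 for testis fate genes and -0.22 to 0.11 for targets. With 3 ovaries per genotype, differences of the size seen for Foxl2 and Gata6 were not separated from the spread after adjustment over all genes.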
